A study of Homo sapiens with 30 samples.

Results

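Among 42925 CTCF regions called by chromatin immunoprecipitation with sequencing (ChIP-seq) in HEK293T cells, 474 also carried TET2. They were chosen by the measured peak calls of these 2 proteins: a CTCF region counted when it had 1 bp or more in common with a TET2 region, both called in cells without the auxin indole-3-acetic acid (IAA). Of the 474, 135 also carried MBD3 and TET1, 129 carried TET1 without MBD3, 26 carried MBD3 without TET1, and 184 carried TET2 with neither. Most were weak CTCF regions, but the 135 with all 4 proteins held both some of the strongest and the weakest regions of the CTCF list.

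CTCF is a zinc-finger protein that binds a long DNA motif and, with cohesin, anchors chromatin loops. TET1 and TET2 are enzymes that oxidise 5-methylcytosine, the first step of active DNA demethylation, and methylation within the CTCF motif is known to weaken CTCF binding at many sites. TET1 has a CXXC domain that binds DNA rich in CpG, whereas TET2 lacks one and relies on partner proteins to reach chromatin. MBD3 belongs to NuRD, a complex that moves nucleosomes and removes acetyl groups from histones.

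HEK293T is an established human embryonic kidney line, here edited at CTCF and transfected with plasmids for pcDNA3.1-ScFv-miniIAA7-mEGFP and pcDNA3.1-AtAFB2-mCherry, the parts of an auxin degradation system that both conditions carry. The groups compared were cells kept for 72 h with 0.5 mM IAA, which triggers degradation of CTCF, and cells kept without IAA, with antibodies against CTCF, MBD3, TET1 and TET2 and 3 samples in each group. One label calls the cells without IAA DMSO-treated, but the protocol speaks only of fresh medium lacking IAA. The degradation parts were brought in by transfection, and the share of cells that took them up is not given in the labels.

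All 8 peak lists were called on pooled samples, 3 to a list, so no value has a replicate error and no difference described here was tested across cultures. The 95% intervals are Wilson intervals for shares and order-statistic intervals for medians, and cover counting error over regions only. The lists with IAA held 63 CTCF, 50 MBD3, 325 TET1 and 3022 TET2 regions, and those without IAA held 42925, 6608, 16246 and 1326 in the same order. Read depth is unknown, and it helps decide how many weak regions each list holds. Strength is the authors' fold enrichment of a peak, which was compared within a list and never between lists, and positions are in hg19. The presence of CTCF and TET2 chose the regions, so what follows on those 2 proteins is a description.

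MBD3 and TET1 were often called at the CTCF regions with TET2. TET1 was present at 264 of the 474, or 55.7% (51.2% to 60.1%), against 34.1% (33.7% to 34.6%) of the 42451 CTCF regions without TET2 and 34.4% of all CTCF regions. MBD3 was present at 161 of the 474, or 34.0% (29.8% to 38.3%), against 8.39% (8.13% to 8.66%) of those without TET2 and 8.67% of all. TET2 itself was called at 1.10% of CTCF regions. The number depends on how calls are counted: 271 CTCF regions carried TET2 when 50% of both regions had to overlap, 118 with −log10 q of at least 5 in every list, 44 at 10, and 96 with a fold of at least 5. These shares come from lists of very different length, so they do not rank the proteins by abundance.

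CTCF was weak at most of the regions that carried TET2. Their median CTCF fold was 5.91 (interval 5.55 to 6.63, quartiles 4.13 and 11.6), against 13.6 (13.6 to 13.8, quartiles 7.55 and 24.2) at the CTCF regions without TET2. Under 10-fold lay 340 of the 474, or 71.7% (67.5% to 75.6%), against 37.0% (36.5% to 37.5%) of the others. In the top 10% of the CTCF list the pooled shares were close: 43 of the 474, or 9.07% (6.80% to 12.0%), against 10.0% (9.74% to 10.3%) of the others. Among regions with the same other proteins they were not. With MBD3 and TET1 the share was 24.4% with TET2 and 58.6% without, and with TET1 alone 7.75% and 19.7%. With MBD3 alone it was 0 of 26 against 5.92%, and with neither 0 of 184 against 0.441%, too few regions to read a lack.

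All 4 classes had their median CTCF fold below that of the whole list, 13.6, but they differed in how far up the list they reached. The 135 regions with all 4 proteins ranged from 1.10- to 125.9-fold, the lowest and the highest CTCF fold of the whole list, with a median of 7.25 and quartiles of 3.83 and 34.8. Those with TET2 and TET1 ran from 3.12- to 46.4-fold with a median of 9.23. With TET2 and MBD3 the range was 3.03- to 23.9-fold and the median 4.79. The 184 regions with TET2 alone ran from 2.53- to 21.3-fold with a median of 5.21 (4.80 to 5.66), and 178 of them, or 96.7% (93.1% to 98.5%), lay under the median of all CTCF regions. None of the 184 was in the top 10% of the list (upper bound 2.05%), where 33 of the 135 with all 4 were found, or 24.4% (18.0% to 32.3%). CTCF regions without TET2 differed in the same direction. Their share in the top 10% was 0.441% with none of the 3 proteins and 58.6% with MBD3 and TET1. The order of the 2 medians, 7.25 with all 4 and 5.21 with TET2 alone, did not hold under every setting: they were 4.21 and 5.09 with 50% overlap, 5.43 and 6.20 at −log10 q of at least 5, and 2.40 and 6.89 at 10.

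**Figure D1:**
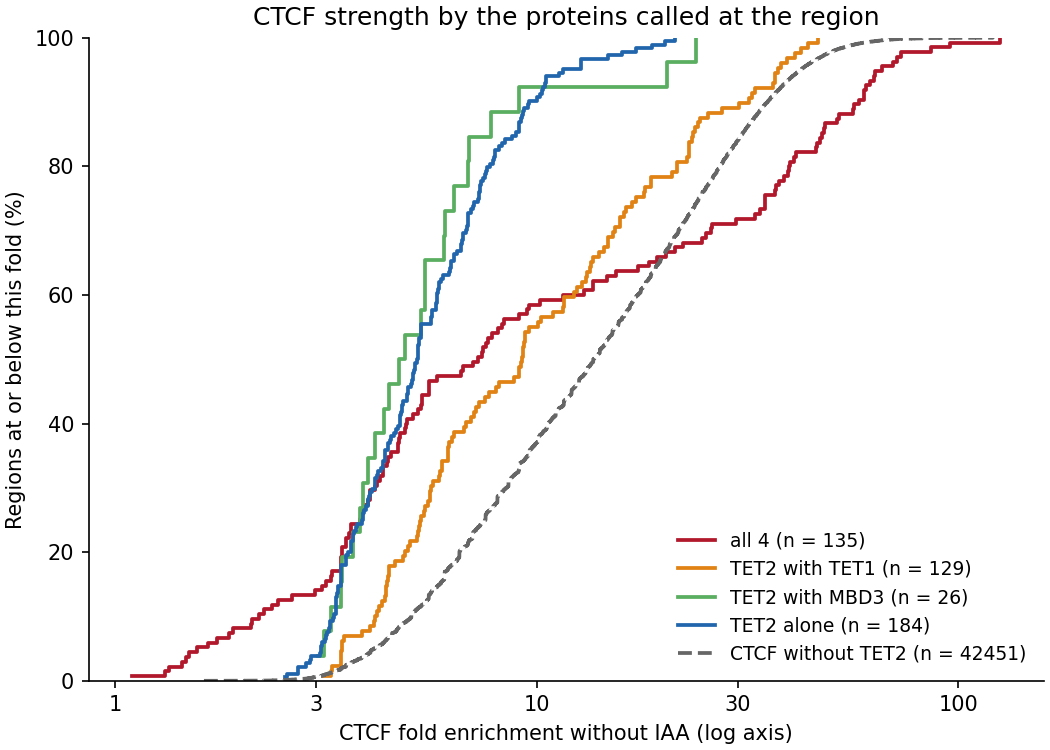
Cumulative share of regions (y axis, %) by CTCF fold enrichment without IAA (x axis, log scale), for the 4 classes of CTCF regions with TET2 and, dashed, for the 42451 CTCF regions without TET2. The curves of TET2 alone and of TET2 with MBD3 rise at low fold, while the curve of all 4 starts lowest and ends highest, with a median of 7.25 and quartiles of 3.83 and 34.8.

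Each class can be set beside CTCF regions that carry the same other proteins but no TET2. Of the 135 with all 4 proteins, with a median CTCF fold of 7.25, 79 lay under 10-fold, or 58.5% (50.1% to 66.5%). The 3240 CTCF regions with MBD3 and TET1 and no TET2 were strong, with a median of 37.8-fold and 2.41% (1.93% to 2.99%) under 10-fold. The MBD3 fold was close in the 2 sets, with medians of 5.66 (5.18 to 6.10) at regions with all 4 and 6.05 (5.96 to 6.17) at regions without TET2. TET1 had a median of 6.30 (5.19 to 7.20) with all 4 and 10.2 (10.0 to 10.4) without TET2. The 129 regions with TET2 and TET1 had a median CTCF fold of 9.23 and a TET1 fold of 4.52 (4.13 to 5.19), against 26.1 and 7.17 (7.11 to 7.24) at the 11242 regions with TET1 alone. The 26 with TET2 and MBD3 had a median CTCF fold of 4.79 (3.88 to 6.05) and an MBD3 fold of 4.98 (4.21 to 7.30), against 10.2 (7.83 to 13.0) and 5.05 (4.83 to 5.24) at the 321 regions with MBD3 alone. The 184 with TET2 alone stood at 5.21-fold for CTCF, against 9.41-fold at the 27648 regions with none of the 3 proteins. In every class, then, the median CTCF fold was lower with TET2.

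TET1 and MBD3 were called more often at strong CTCF regions, so their shares were also read at like CTCF strength. Here the CTCF regions with TET2 were above the others at every step in both proteins, although TET1 was near 100% in both at 40-fold or more. At 3- to under 5-fold TET1 was called at 63 of 154 regions with TET2, or 40.9% (33.5% to 48.8%), against 6.08% (5.37% to 6.89%) of those without. The step from 5- to under 10-fold gave 42.5% (35.1% to 50.2%) with TET2 and 4.22% (3.87% to 4.60%) without. From 20- to under 40-fold the shares were 91.7% (80.4% to 96.7%) with TET2 and 74.5% (73.7% to 75.2%) without. The ratio of the TET1 shares was thus largest below 10-fold. MBD3 was called at 32.5% (25.6% to 40.2%) of regions with TET2 and 3.20% (2.69% to 3.81%) of those without from 3- to under 5-fold. At 40-fold or more it was called at 86.7% (70.3% to 94.7%) with TET2 and 53.7% (51.8% to 55.6%) without. The regions with TET2 were also wider at every step, for example 285 bp against 205 bp from 5- to under 10-fold, and a wide region has more room to touch another list. How much of these shares goes with width was not tested.

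**Figure D2:**
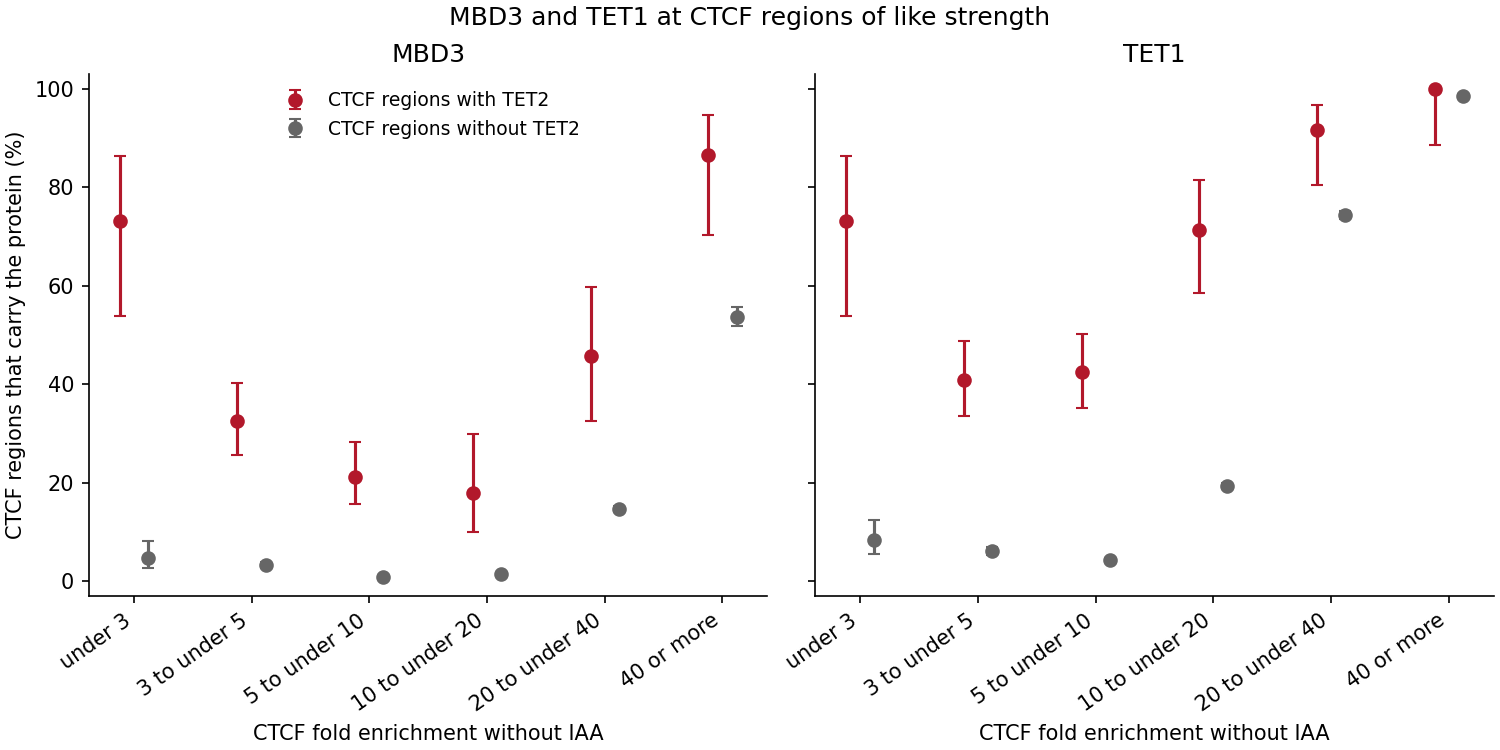
Share of CTCF regions (y axis, %) that carry MBD3 (left) or TET1 (right) by step of CTCF fold without IAA (x axis), for regions with TET2 (red) and without (grey), with Wilson 95% intervals as bars. Red points lie above grey at each step, and at 40-fold or more TET1 reaches 100% of regions with TET2 and 98.6% of those without.

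TET2 strength changed little with CTCF strength above 3-fold. The median TET2 fold was 4.84 at CTCF regions of 3- to under 5-fold, 4.45 at 5 to under 10, 4.32 at 10 to under 20, 4.32 at 20 to under 40, and 4.67 at 40 or more. Below 3-fold it was 2.52, at 26 regions of which 19 carried all 4 proteins. Within the TET2 list, the 475 TET2 regions at CTCF had a median of 4.46-fold (4.30 to 4.62), against 4.76 (4.57 to 4.93) for the 851 away from CTCF. By class the median was 4.76 with all 4, 4.57 with TET1, 4.90 with MBD3 and 4.18 with TET2 alone. Some of these calls were near the threshold of the list, a q of 0.05: −log10 q was under 2 at 88 of the 474, or 18.6% (15.3% to 22.3%), and at 17 of them it stood at the lowest value in the list. At 61, or 12.9% (10.2% to 16.2%), it was 10 or more. The whole TET2 list of 1326 regions had close shares, 17.9% under 2 and 12.0% at 10 or more.

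**Figure D3:**
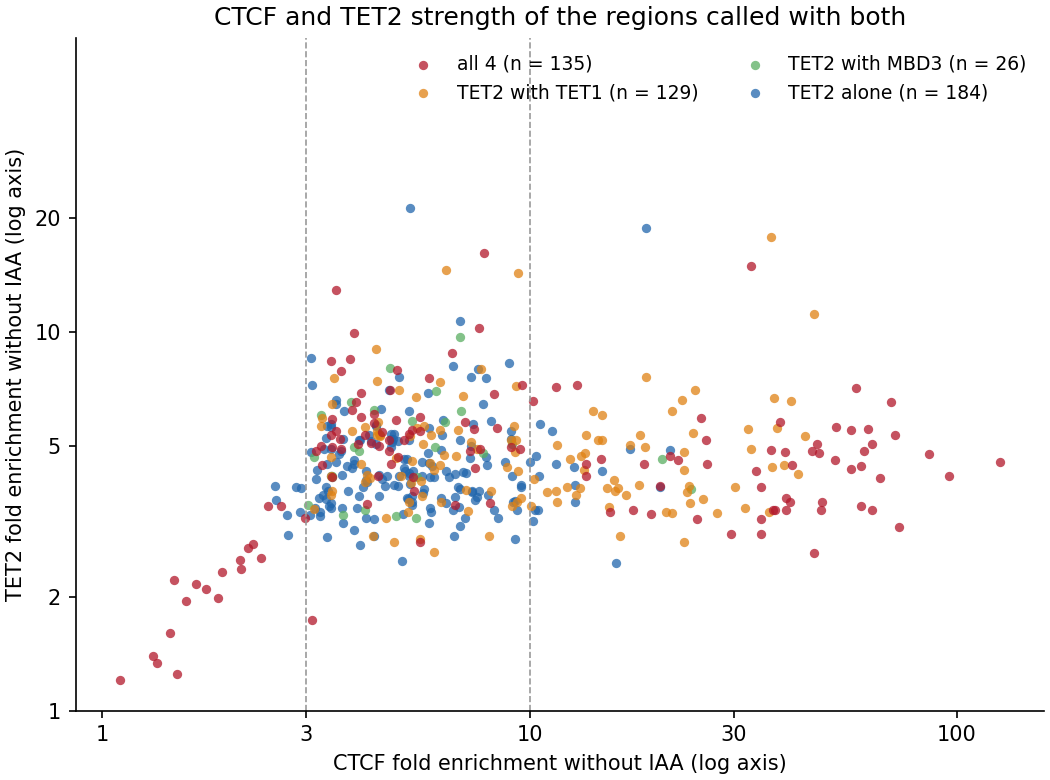
TET2 fold (y axis, log scale) against CTCF fold (x axis, log scale), both without IAA, for the 474 CTCF regions with TET2, coloured by class, with dashed lines at 3- and 10-fold CTCF. Below 3-fold the points, mostly regions with all 4 proteins, fall along a diagonal, and above it the TET2 fold stays around a median of 4.3 to 4.8 across the range of CTCF.

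The strongest CTCF regions of the set carried all 4 proteins, while their TET2 folds ranked between 620 and 856 of 1326. First in the whole CTCF list was chr12:58299121-58299535, with 125.9-fold for CTCF, 11.6 for MBD3, 32.9 for TET1 and 4.55 for TET2, rank 683 of 1326 in the TET2 list. Next came chr5:172571264-172571745, rank 17 for CTCF at 95.7-fold, with MBD3 at 9.05, TET1 at 17.7 and TET2 at 4.17. The third, chr17:41560911-41561472, had 86.2-fold for CTCF, 11.6 for MBD3, 21.5 for TET1 and 4.76 for TET2. At these 3 sites the TET1 and MBD3 summits lay within 17 bp of the CTCF summit, and the TET2 summits at 52, 43 and 21 bp.

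The top 3 TET2 calls of this class lay at CTCF folds on both sides of 10, and 58.5% of the class lay under 10-fold. TET2 reached 16.2-fold, rank 14 of its list, at chr10:32428320-32428536, where CTCF was 7.82, MBD3 4.42 and TET1 5.18. At chr9:109790019-109790307 TET2 was 13.0-fold, with CTCF at 3.53, MBD3 at 8.42 and TET1 at 6.64. Also among the top 3 was chr3:129118252-129118785, where TET2 was 15.0-fold and CTCF 33.0-fold, with summits 206 bp apart.

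The regions with all 4 proteins were split into 3 groups of CTCF strength, with borders at 3- and 10-fold that were chosen after the values were seen. Above 10-fold stood 56 of the 135. Their median CTCF fold of 39.7 exceeded 93.5% of the CTCF list and their median TET1 fold of 11.2 exceeded 84.7% of the TET1 list, while their median TET2 fold of 4.50 (4.13 to 4.76) exceeded 45.6% of the TET2 list. Between 3 and 10-fold stood 60 regions. The place of each group in the CTCF list is set by the split itself. CTCF, at 4.69-fold, exceeded 8.49% of its list and TET1, at 4.88-fold, 18.1%, while TET2, at 5.37-fold (5.00 to 5.79), exceeded 69.0% of its list and was above the list's median at 48 of the 60. MBD3 was above its own list's median at 36 of these 60 and at 37 of the 56 strong regions, with medians of 5.85 and 6.14. In the class with TET1 and no MBD3 the TET2 medians were closer, 4.70 between 3 and 10-fold and 4.34 above. With TET2 alone they were 4.19 and 4.36.

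The third group, 19 regions under 3-fold, was at the bottom of every list. Medians were 1.86-fold for CTCF, 2.22 for MBD3, 2.06 for TET1 and 2.22 for TET2, and in each list 3.39% or less of all regions lay below the median. Low fold here went with high significance at some sites. At chr19:27731968-27732306 the 4 folds lay between 1.75 and 2.12, yet −log10 q was 157.7 for CTCF and 306.9 for TET2, whose list has a median of 3.66. At chr1:121484961-121485375 the folds lay between 1.33 and 1.42, with −log10 q of 121.7 for CTCF and 125.9 for TET2. Both were chosen here after their values were seen. Of the 15 regions of this group on chromosomes 1 to 22 and X, 12 lay within 1 Mb of the longest stretch without any CTCF region on their chromosome. This holds for 0 of the 116 regions with all 4 proteins at 3-fold or more (upper bound 3.21%) and for 0.985% of CTCF regions without TET2. That longest stretch was, for example, 21.1 Mb on chromosome 1, and chr1:121484961-121485375, a region of this group, forms its border. The stretches were found among all CTCF regions, and regions of this group border several of them. Their nearness to the stretches is thus in part fixed by the definition. The 4 regions of the group off chromosomes 1 to 22 and X lay on 1 unlocalised contig of chromosome 9.

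**Figure D4:**
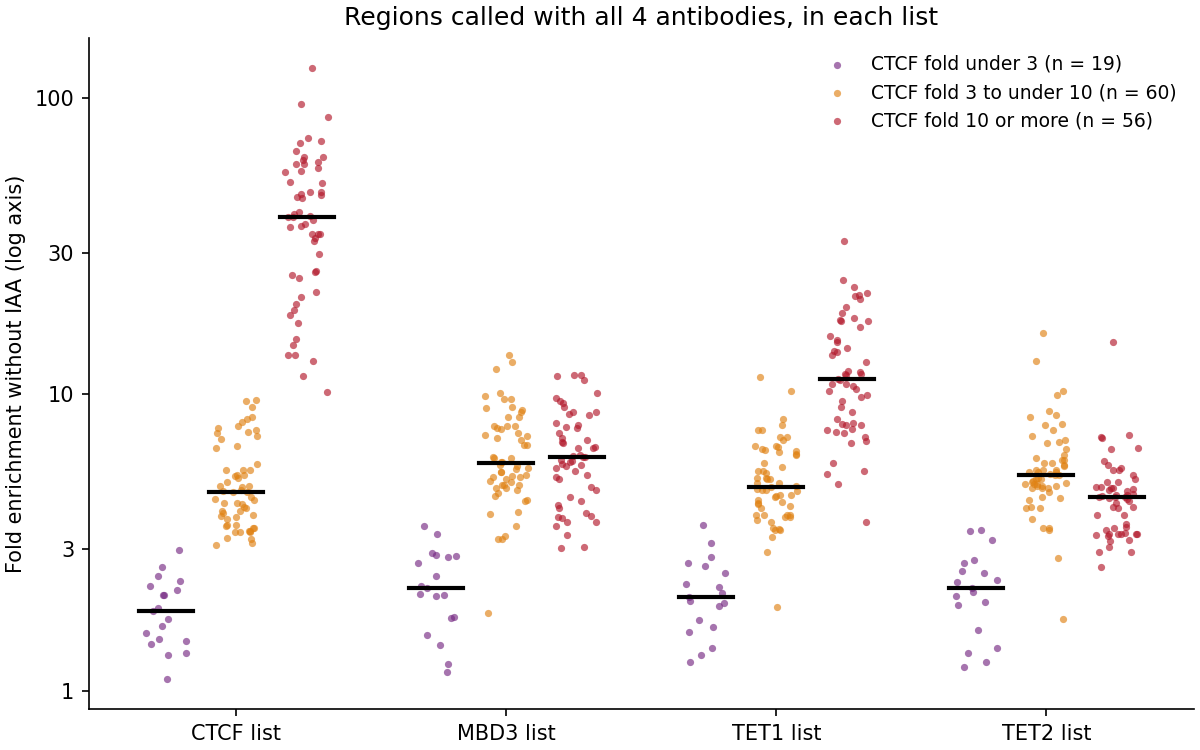
Fold enrichment without IAA (y axis, log scale) of the 135 regions called with all 4 antibodies, in each of the 4 lists (x axis), split by CTCF fold into under 3 (purple, n = 19), 3 to under 10 (orange, n = 60) and 10 or more (red, n = 56); black bars are medians. The groups separate by construction in the CTCF list and keep their order in the TET1 list, while in the TET2 list the orange median of 5.37 stands above the red median of 4.50.

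The highest CTCF folds among the 184 regions with TET2 alone were 21.3 at chr15:79165861-79166487, 20.2 at chr19:14247463-14248449 and 18.8 at chr11:61334730-61335262, which are ranks 13186, 14205 and 15622 of the CTCF list. TET2 stood at 4.89-, 3.91- and 18.9-fold there, with its summit 240, 262 and 287 bp from that of CTCF. In the TET2 list these are ranks 581, 957 and 11 of 1326. The highest TET2 folds of the class were 21.3 at chr22:41864648-41865232, rank 8 of the TET2 list, then the same chr11 region, and 10.7 at chr1:113931243-113931400. CTCF was 5.26-fold at the chr22 region and 6.89-fold at the chr1 region.

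In the class with TET1 and no MBD3, the CTCF folds were highest at chr2:201577740-201578076, chr12:9043167-9043677 and chr11:43333332-43333626, at 46.4, 44.0 and 42.5. TET1 was 13.3-, 13.4- and 12.2-fold there and lay 5, 2 and 2 bp from the CTCF summit, while TET2 was 11.2-, 5.32- and 4.22-fold at 134, 158 and 248 bp. The TET2 fold of this class was highest at chr3:12882854-12883563, at 17.8, followed by 14.6 at chr7:44645984-44646219 and 14.3 at chr6:110500902-110501444. CTCF was 36.7-, 6.38- and 9.37-fold at these sites.

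The 26 regions with MBD3 and no TET1 were mostly weak in CTCF, with just 2 at 10-fold or more. These were chr12:56435285-56435852 at 23.9-fold and chr6:88411804-88412253 at 20.4-fold, followed by chr6:159220101-159220683 at 9.07-fold. Their MBD3 folds were 4.04, 3.59 and 4.31 and their TET2 folds 3.85, 4.63 and 5.06. TET2 was strongest at chr1:202779821-202780017, at 9.72-fold, then at chr3:195223394-195224203 with 8.07-fold and chr4:119809861-119810118 with 6.98-fold, where CTCF was 6.89-, 4.71- and 6.05-fold.

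The TET2 summit lay within 50 bp of the CTCF summit at a minority of the regions. Over the 474 regions the median distance was 75 bp (67 to 85, quartiles 31 and 152), and 174, or 36.7% (32.5% to 41.1%), lay within 50 bp. With −log10 q of at least 5 in every list the median was 42 bp (29 to 69). At 10 it was 29 bp (11 to 134) over 44 regions. Of these, 16 carried all 4 proteins, with a median CTCF fold of 2.40, and weak all-4 regions had close summits. How far such regions set these shorter medians was not tested. With a fold of at least 5 the median was 59.5 bp (42 to 99), also below 75 bp, but its interval includes that value. Without these limits, the regions with all 4 proteins had a median of 54 bp (38 to 74) and a share within 50 bp of 47.4% (39.2% to 55.8%). With TET2 alone these were 81.5 bp (69 to 99) and 29.3% (23.2% to 36.3%). The weakest all-4 regions, under 3-fold, had TET2 at a median of 11 bp, while both stronger groups had it at 66 and 60 bp, in the order 3- to under 10-fold and 10-fold or more. The TET2 summit still fell inside the CTCF region at 406 of the 474, or 85.7% (82.2% to 88.5%).

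Over the whole set, MBD3 and TET1 lay nearer to the CTCF summit than TET2 did. Both were less often within 50 bp of it than at CTCF regions without TET2, which had a higher median CTCF fold. In the all-4 class TET1 lay at a median of 15 bp and MBD3 at 27 bp, against the 54 bp of TET2. TET1 was within 50 bp of the CTCF summit at 191 of 264 regions with TET2, or 72.3% (66.7% to 77.4%), against 96.9% (96.6% to 97.2%) at regions without it. For MBD3 the shares were 62.1% (54.4% to 69.2%) with TET2 and 91.0% (90.1% to 91.9%) without. These shares were not read at like CTCF strength, and they differed by class. At the 321 regions with MBD3 but no TET1 or TET2, MBD3 was within 50 bp at 60.1% (54.7% to 65.3%). At the 26 with TET2 and MBD3 it was 34.6% (19.4% to 53.8%). Within the all-4 class the distances differed between the groups of CTCF strength. At 10-fold or more the TET1 summit lay a median of 6.5 bp from CTCF and was within 50 bp at 54 of 56, and the MBD3 summit lay at 16.5 bp. Under 3-fold the medians were 9 bp for MBD3 and 11 bp for both TET1 and TET2. From 3- to under 10-fold the medians were 43 bp for TET1 and 63.5 bp for MBD3, about as far as TET2 at 66 bp. There the MBD3 and TET2 summits lay 45 bp apart and the TET1 and TET2 summits 51 bp. All 4 summits fitted in 50 bp at 10 of these 60 regions, at 20 of the 56 stronger ones and at 13 of the 19 weakest.

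**Figure D5:**
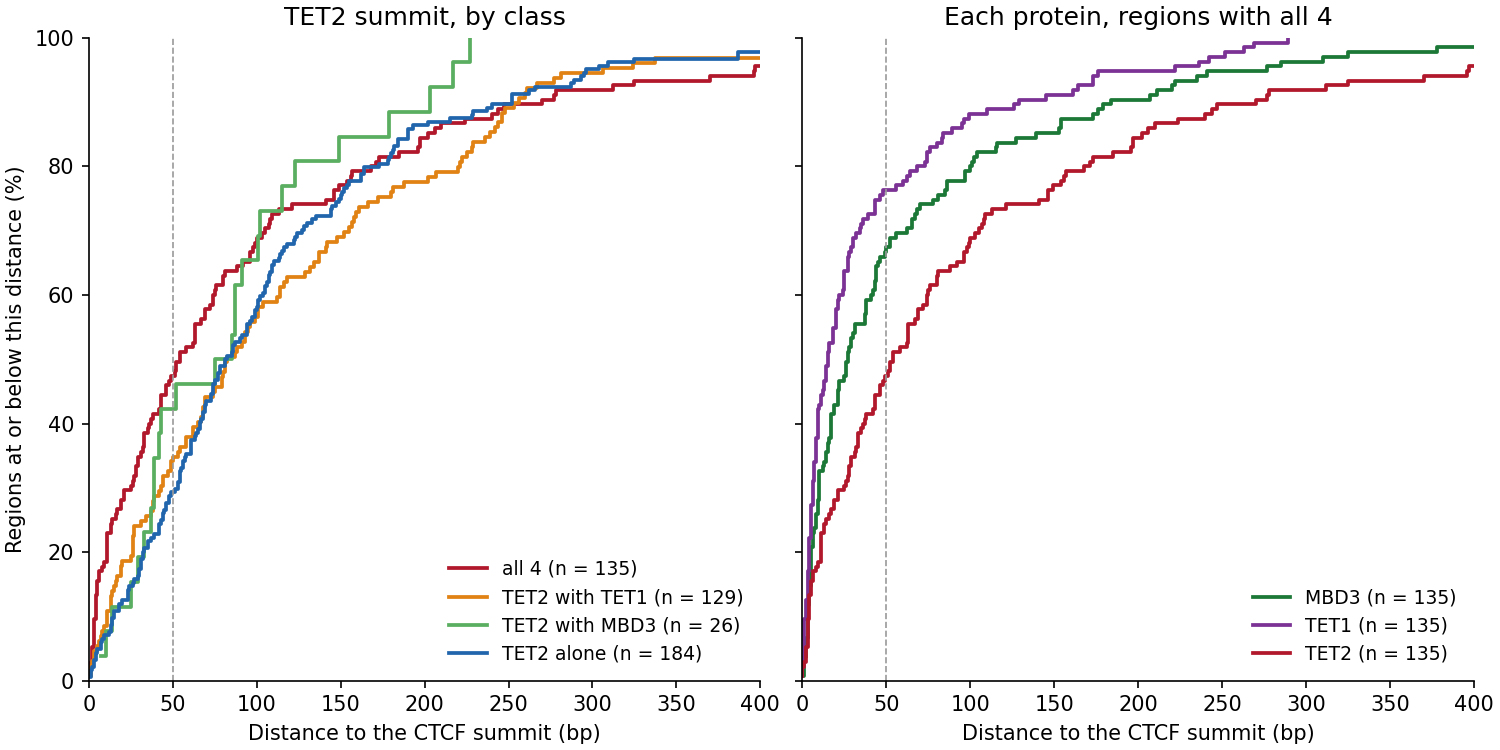
Cumulative share of regions (y axis, %) by distance to the CTCF summit in bp (x axis, drawn to 400 bp), for the TET2 summit in each class (left) and for the MBD3, TET1 and TET2 summits at the 135 regions with all 4 proteins (right); the dashed line marks 50 bp. TET1 rises first and TET2 last on the right, with 76.3%, 67.4% and 47.4% within 50 bp for TET1, MBD3 and TET2.

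The CTCF regions with TET2 were somewhat wider than the others, and a larger share had several summits. Their median width was 300.5 bp (290 to 321), against 276 bp (275 to 277) at CTCF regions without TET2. A 1 bp overlap rule by construction favours wide regions. Classes with TET1 were widest, at 367 bp with all 4 and 346 bp without MBD3, while TET2 with MBD3 had 240.5 bp and TET2 alone 258 bp. Beside regions with the same other proteins and no TET2, they were not wider throughout: 367 bp (336 to 396) with all 4 against 382 bp (379 to 384), 346 bp (323 to 371) with TET1 against 343 bp (341 to 344), 240.5 bp (202 to 343) with MBD3 against 283 bp (267 to 294), and 258 bp (234 to 276) with TET2 alone against 235 bp (234 to 236). More than 1 summit was listed at 69 of the 474, or 14.6% (11.7% to 18.0%), against 1.96% (1.83% to 2.09%) of the others. With all 4 proteins it was 27 of 135, or 20.0% (14.1% to 27.5%), against 3.77% (3.16% to 4.48%) of the regions with MBD3 and TET1 but no TET2. On chromosomes 1 to 22 and X the widest was chr5:10065-11760, with 1696 bp and 4 listed summits, at the start of the chromosome. It was followed by chr16:30103117-30104206 with 1090 bp, where TET2 lay 675 bp from the main CTCF summit, and chr17:56595207-56596279 with 1073 bp, where it lay 752 bp away.

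Few regions stood near the border of the 1 bp rule. The shared stretch had a median of 169 bp (quartiles 144 and 209). The shortest were 7 bp at chr6:35995163-35995508, 9 bp at chr13:77600388-77600568 and 10 bp at chr4:138466660-138466942, with CTCF at 23.0-, 3.43- and 9.06-fold and TET2 at 4.82-, 3.43- and 4.99-fold. Just outside the rule, chr7:75544250-75544459 missed a TET2 region by 6 bp, chr9:104160897-104161137 by 21 bp and chr17:56769752-56769927 by 23 bp, with CTCF at 3.19-, 6.06- and 3.70-fold. Their nearest TET2 regions had 4.51-, 3.39- and 4.15-fold.

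With IAA, 459 of the 474 regions touched no region of any list, and 15, or 3.16% (1.93% to 5.16%), touched at least 1, against 0.294% of all CTCF regions. CTCF was still called at 8, or 1.69% (0.858% to 3.29%), against 0.126% of all CTCF regions and 0.108% (0.0813% to 0.144%) of those without TET2. The 8 make up 14.8% of the 54 CTCF regions called in both conditions. All 8 had carried all 4 proteins, and 7 of them had a CTCF fold under 3 without IAA. Those 7 are also all the CTCF regions under 3-fold that were kept: 0 of the 252 without TET2 were (upper bound 1.50%). The eighth, chr9:67320493-67320892, had 3.10-fold. So without the 26 regions under 3-fold, 1 of 448 was kept.

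The kept regions had low folds in both conditions, with CTCF at 1.3- to 2.33-fold with IAA and 1.10- to 3.10-fold without. At chr19:27731968-27732306 the folds with IAA were 2.33 for CTCF, 2.16 for MBD3 and 2.16 for TET1, and without IAA 1.75, 2.12 and 2.01 in the same order. At chr10:42398550-42398794 they were 1.68, 1.72 and 1.48 with IAA, and 1.44, 1.78 and 1.73 without. Folds of the 2 conditions come from separate lists and are given side by side, not compared. CTCF, MBD3 and TET1 were all called with IAA at 5 of the 8. TET2, in contrast, was not called with IAA at any of the 8, although its list with IAA is the longest at 3022 regions. MBD3 with IAA was found at 5 of the 474 regions, or 1.05% (0.451% to 2.45%), against 0.0140% of all CTCF regions, and these are the same 5 sites.

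At strong regions almost nothing was called with IAA, as at CTCF regions as a whole. A CTCF, MBD3 or TET2 call with IAA was kept at 0 of the 134 regions at 10-fold or more (upper bound 2.79%). Over all CTCF regions the shares were 0.126%, 0.0140% and 0.0815% in the same order, so no lack can be read from 134 regions. TET1 was kept at 2 of the 134. These were chr17:34476317-34476719, with TET1 at 4.73-fold with IAA and, without IAA, 15.8-fold for TET1 and 73.0-fold for CTCF, and chr6:70506794-70507137, with TET1 at 6.01-fold with IAA and, without IAA, 18.8-fold for TET1 and 63.4-fold for CTCF. TET1 with IAA was called at 11 of the 474 in all, or 2.32% (1.3% to 4.11%), against 0.105% of all CTCF regions. At 2 of the 11 it had not been called without IAA: chr1:67395653-67396008 and chr15:71055877-71056095, regions with TET2 alone, had TET1 at 6.03- and 6.12-fold with IAA. With lists of 50 to 325 regions for 3 of the 4 antibodies, few sites of any kind could have been kept.

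TET2 itself was called with IAA at 2 of the 474 regions, or 0.422% (0.116% to 1.53%), against 0.0815% of all CTCF regions. One was chr5:10065-11760, at 7.11-fold with IAA and 2.80-fold without. The other, chr19:56826093-56826629, had 4.26-fold with IAA and 3.39-fold without, but the TET2 region with IAA touched the CTCF region and not the earlier TET2 region. Counted over TET2 regions, 1 of the 475 at CTCF was kept, or 0.211%, and 5 of the 851 away from CTCF, or 0.588%. With 1 and 5 regions, no difference can be read from these shares.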

How the data were processed

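ChIP-seq libraries were made from HEK293T cells in 10 groups of 3 samples, 2 of them inputs, grouped by their titles. Per the submitters' processing notes the build was hg19 and the tools were MACS2 2.1.2, Bowtie2 2.3.4, bedtools 2.25.0, SAMtools 1.9 and FastQC 0.11.7, with no step named. Which control each peak list used is not stated there. The authors deposited 8 narrowPeak lists, each from 3 pooled samples. Column 7 is the authors' fold enrichment (a ratio), column 9 their −log10 of the q-value, and column 10 the summit offset. No q in any list was above 0.05. Rows of a list sharing 1 bp were joined. All such rows had identical borders and differed in summit, so a joined region is a region with several summits, and it took its largest fold and −log10 q, with the summit of the row of largest −log10 q. Where a region touched several regions of a list, the highest fold and the nearest summit were taken. Positions count from 1 in hg19. No hg19 sequence or annotation was used here, so regions are given without genes or motifs.

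Regions are positions, not replicates, so no test was run: counts, medians and intervals describe pooled lists of unknown depth. Overlap and interval code was tested on simulated data (Python 3.11.15, numpy 2.4.6, pandas 2.3.3, scipy 1.17.1). The regions and classes were chosen with earlier results of these data known. The regions named are, per class on chromosomes 1 to 22 and X, the 3 highest by CTCF and by TET2 fold, with the 3 widest, the 5 strongest that touched a list with IAA, and the 3 on each side of the overlap rule. Other regions named with IAA, the comparison by CTCF fold step, the groups of the all-4 class and the stretches without CTCF were added after values were seen. Other settings tried were 50% shared by both regions, a summit limit of 200 bp, a −log10 q minimum of 5 or 10, a fold minimum of 5, unjoined rows, chromosomes 1 to 22 and X alone, and strength read from −log10 q.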

Additional observations from a re-analysis of the deposited data

How the results depend on the processing

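Counts of regions, TET2 fold and summit distance moved most with the threshold of the lists, and the shares with TET1 and MBD3 with the overlap rule. With −log10 q of at least 5 in every list the set held 118 regions, 36 with all 4 proteins and 50 with TET2 alone, the median TET2 fold was 5.59 and the median TET2 summit distance 42 bp. At −log10 q of at least 10 these were 44, 16, 17, 6.31 and 29 bp, with MBD3 at 40.9%, a median CTCF fold of 6.68 and 4.41% of the CTCF list below that median. At a fold of at least 5 they were 96, 23, 43, 5.81 and 59.5 bp, with TET1 at 49.0%, a median CTCF fold of 8.66 above 24.3% of the list, a width of 331 bp and 0 regions kept by CTCF with IAA. That minimum itself raises the median folds. It also removes all 8 regions kept by CTCF, which had 3.10-fold or less without IAA. When 50% of both regions had to overlap, 271 regions remained, 52 with all 4, with TET1 at 42.4% and MBD3 at 23.6%, median folds of 5.23 for CTCF (above 11.6% of the list) and 4.63 for TET2 (above 50.4%), a summit distance of 53 bp and a width of 266 bp. Summits within 200 bp gave 61 bp and 283 bp, which that rule itself lowers. Single rows gave a width of 336 bp, and ranking by −log10 q put the median region above 24.0% of the CTCF list. Without regions under 3-fold, added after values were seen, 1 region was kept by CTCF with IAA. Under every setting the median CTCF fold stayed in the lower part of its list. The order of the classes did not hold: all 4 against TET2 alone had median CTCF folds of 7.25 and 5.21 as reported, but 4.21 and 5.09 with 50% overlap, 5.43 and 6.20 at −log10 q of at least 5, and 2.40 and 6.89 at 10. The cause was not tested. No paired analysis was possible because each list pools its 3 samples, and for the same reason no replicate could be left out. Read depth is unknown.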

Other observations

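The CTCF regions with TET2 were spread over chromosomes 1 to 22 and X, with shares that departed from those of all CTCF regions on some. Chromosome 1 held 60 of the 474, or 12.7% (9.96% to 16.0%), against 9.32% of all CTCF regions, and chromosome 17 held 36, or 7.59% (5.54% to 10.3%), against 4.61%. The X chromosome held 7, or 1.48% (0.717% to 3.02%), against 3.83%. Chromosome 13 held 17 of the 474, and 11 of those 17 carried all 4 proteins, beside 5 with TET2 alone. On chromosome 19 the make-up was the other way, with 4 and 14 of its 25. Over all 474 regions, 28.5% carried all 4 proteins and 38.8% TET2 alone. None of the chromosomes named here was picked by a rule set beforehand, and the counts on chromosomes 13 and 19 are small. Another CTCF region lay within 1 kb at 53 of the 465 regions on chromosomes 1 to 22 and X, or 11.4% (8.82% to 14.6%). This was so at 6.33% (6.10% to 6.57%) of CTCF regions without TET2. The 2 shares are not at like CTCF strength. At CTCF regions without TET2 under 3-fold the share was 19.9% (15.4% to 25.4%). The median distance to the next CTCF region was 12.7 kb with TET2 and 14.8 kb without. The remaining 9 regions lay on alternative or unplaced sequences, and 1 of them, with TET2 alone, was the widest of the whole CTCF list at 2245 bp with 6 listed summits.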
